A study of Mus musculus with 2 samples.

Results

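Layer 5 extratelencephalic neurons are the large pyramidal cells of the deep cortex whose axons leave the telencephalon for the brainstem and spinal cord. They are also called pyramidal tract (PT) neurons, and the deposited table names them L5 PT, the name kept here. The nuclei described here are those with the label L5 PT CTX in the column that holds the subclass of each nucleus kept as a neuron. They numbered 642 of the 2580 nuclei of this neuron subset and of the 8171 nuclei with any deposited label.

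The nuclei came from mice that carried Atf3-CreER and the nuclear envelope reporter Sun1-sfGFP, both heterozygous, and that were older than 7 weeks at a closed-skull mild traumatic brain injury. In this model Cre is made under the control of Atf3, an injury-induced transcription factor, and tamoxifen given on days 4 and 5 after injury fixed the reporter in cells that made Atf3 then. GFP-positive nuclei were sorted from the ipsilateral cortex on day 7. There were 2 libraries of 10X 3′ single-nucleus RNA-seq, 1 from 4 pooled males and 1 from 4 pooled females, so every comparison below is between kinds of captured neurons, and uninjured neurons were not analysed here. A field of the public label gives the sex of the female library as male, while its name and the deposited table give female. The male library held 352 L5 PT nuclei with a median of 3790 UMIs (unique molecular identifiers, counts of single RNA molecules) and 1803 genes, and the female library held 290 with 10700 UMIs and 3196 genes, so sex and depth cannot be told apart. In sum the L5 PT nuclei gave 1632726 UMIs (male) and 3457660 UMIs (female), and 1 barcode was called in both libraries.

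L5 PT neurons are known for a thick dendrite that reaches the cortical surface, for large and strongly myelinated axons, and for a neurofilament-rich cytoskeleton. Their fate depends on the transcription factors Fezf2 and Bcl11b. They carry the output of the cortex to subcortical targets, whereas intratelencephalic (IT) neurons project within the cortex and striatum and corticothalamic (CT) neurons to the thalamus. Long projection axons make such cells vulnerable to the shear of a head impact, and axon injury is known to start a program that runs through stress kinases, Atf3, and genes of growth or of death.

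The label was checked against markers and clusters. Of the 642 nuclei, 566 (88.2%) lay in 1 deposited cluster, of which they made up 92.2%, and a further 49 lay in a cluster where they were 36.0%. The same label had been given to 615 of them (95.8%) when all nuclei were mapped together. The deposited labels were made from the same counts as the tests below, so the tests describe how labelled groups differ and cannot be read as independent of the labels.

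UMIs were summed per label and library, since nuclei of 1 library are not replicates. The 8 other neuronal labels with at least 50 nuclei were L2/3 IT CTX-1, L2/3 IT CTX-2, L4/5 IT, L6 IT and L6 CT, which are excitatory, and the inhibitory Pvalb, Sst and Vip, giving 16 sums against the 2 of L5 PT. Levels are given in CPM, which are UMIs scaled by TMM to the same library total, as the male and then the female value. For the other labels the lowest, the median and the highest of their 16 sums are given. The fold change is the log2 level in L5 PT minus the mean of the log2 levels of the other labels, from the quasi-likelihood test of edgeR, with Benjamini-Hochberg adjusted p-values over 8664 genes, and a gene is called when the adjusted p is under 0.05. The replicates are 2 pools of animals, whose sums for different labels are not separate animals. In bulk sums like these, a gene made by fewer nuclei and a gene made at a lower level in each cannot be told apart.

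Against the mean of the other 8 labels, 966 genes were called higher in L5 PT (11.1% of the genes tested) and 579 lower (6.68%). With the library as a block, 1400 were called higher and 870 lower. The median of all genes lay at a log2 fold change of 0.04. In each library taken alone, 966 of the higher and 572 of the lower genes moved the same way, and 342 of the higher genes had L5 PT as the highest of the 9 labels in both libraries. Against the 5 other excitatory labels alone, 858 genes were called higher (9.9%) and 584 lower (6.74%). Of the higher genes, 691 were called in both comparisons, which is 71.5% of the first and 80.5% of the second list, though these comparisons share the L5 PT sums. When all other neurons were pooled into 1 sum per library, so that abundant labels weigh more, 627 genes were called higher and 792 lower, and the balance of higher and lower calls turned.

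The genes by which L5 PT neurons are recognised were high, as their labels require. Tcerg1l, a transcription elongation regulator-like gene (ENSMUSG00000091002, chromosome 7, 138208974–138397730, minus strand), stood at 334 and 401 CPM, against 0, 12.2 and 182 CPM elsewhere, where Vip interneurons were the highest. Tmem163, a zinc transporter of vesicles (chromosome 1, 127486546–127679548, minus strand), stood at 640 and 701 CPM, against 0, 37.5 and 76.1 CPM. No other sum reached L5 PT for these genes. Bcl11b, the layer 5 transcription factor also called Ctip2 (chromosome 12, 107910403–108003602, minus strand), was at 60.9 and 46.4 CPM against 0, 17.7 and 123 CPM, and the L6 CT and Sst sums reached it. Fezf2 had 5 and 20 UMIs in all, or 3.02 and 6.31 CPM, and Chrna6 had 0. Of the 16 genes listed for L5 PT identity, 10 passed the filter on low counts, and their fold changes ran from 0.78 for Sox5 to 5.27 for Tcerg1l. Because markers like these set the label, these values are a description.

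At least 1 UMI of Tmem163 was found in 76.7% (male) and 87.6% (female) of L5 PT nuclei (exact binomial 95% intervals 71.9–81.0 and 83.2–91.2), and of Tcerg1l in 52.0% and 64.8% (46.6–57.3 and 59.0–70.3). Microglia, which should lack both, held Tmem163 in 4.20% and 6.12% of nuclei and Tcerg1l in 1.54% and 2.61%, at a median depth of 1298.5 and 3012.5 UMIs. Thinned to 2300 UMIs per nucleus, the L5 PT shares were 69.4% and 63.0% for Tmem163 and 47.4% and 42.3% for Tcerg1l, with 84 male and 9 female nuclei left out. These intervals cover counting error only, since they take each library as 1 sample.

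Several markers of other neurons were low. Of 7 tested genes of IT and upper layer identity, 4 were called lower and 2 higher, Cdh13 among them. Cux2, a transcription factor of upper layers, stood at 9.65 and 6.31 CPM against 4.43, 221 and 528 CPM, and Gad2, an enzyme of GABA synthesis, at 1.81 and 1.26 CPM against 0, 26.0 and 650 CPM. Of the 9 inhibitory identity genes tested, 5 were called lower and 0 higher, and of the 6 L6 CT and deep layer genes, 3 were lower and Tshz2 alone was higher. Slc17a7, the main vesicular glutamate transporter of the cortex, stood at 33.8 and 15.1 CPM in L5 PT, against 32.1 and 11.6 CPM in microglia. Its level in L5 PT was thus close to that in nuclei that should lack it. Slc17a7 was not called against all or against excitatory labels, so no difference from the other labels is read here. At least 1 UMI was found in 13.9% and 13.4% of L5 PT nuclei. In nuclei of the other labels, inhibitory ones included, the shares were 15.4% and 12.9%.

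**Figure D1:**
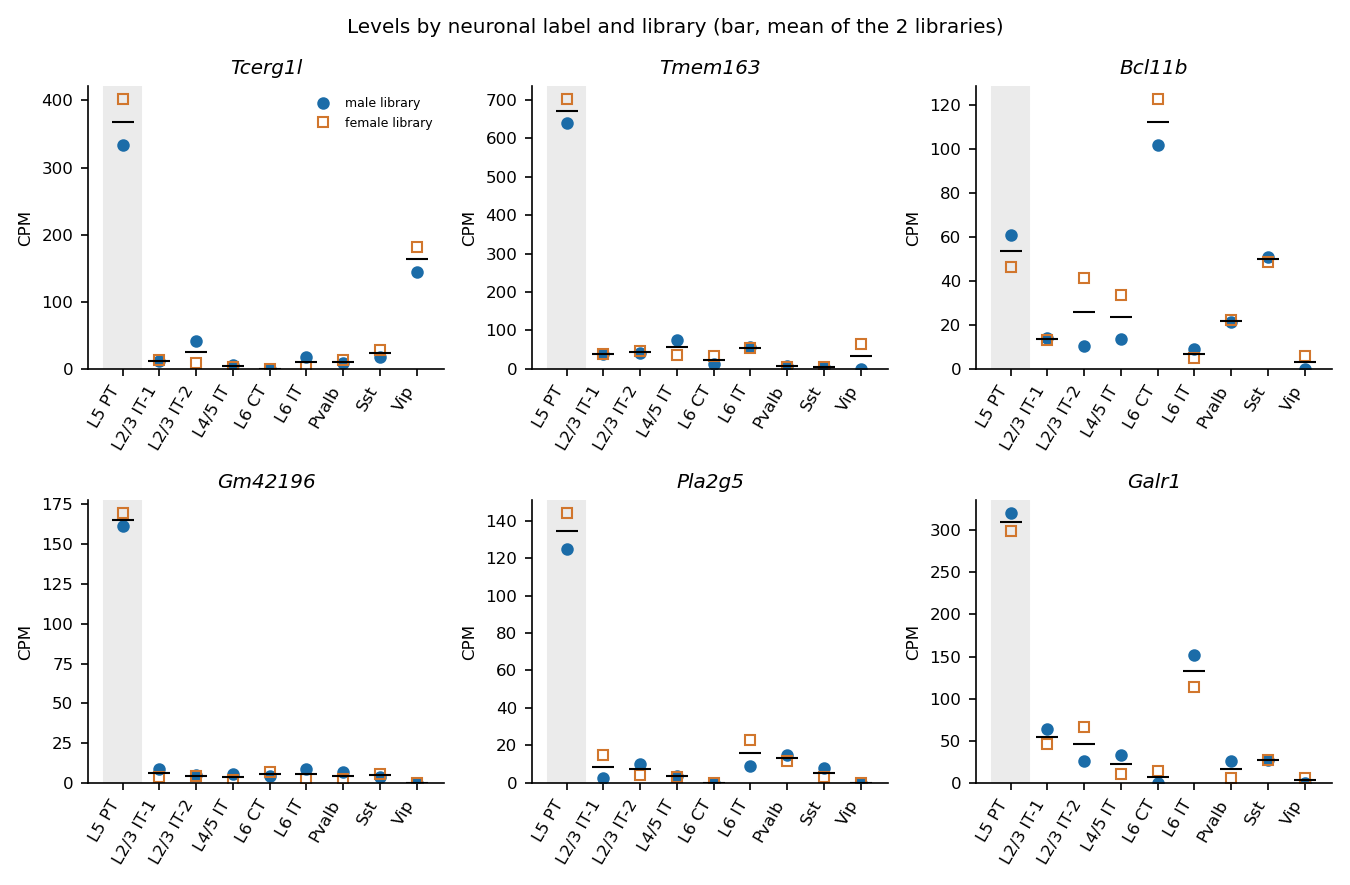
Levels (CPM, linear axis) of 6 genes in the 9 neuronal labels, with L5 PT shaded, male library as filled circles, female as open squares, and the mean of both as a bar. Tmem163, Gm42196 and Pla2g5 were high in L5 PT alone among these labels, Tcerg1l was also at 182 CPM in female Vip, and Bcl11b was highest in L6 CT.

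Several genes outside the marker list set L5 PT apart as clearly. Gm42196, a transcript with no assigned function (chromosome 3, 28176553–28212209, plus strand), was at 162 and 169 CPM, against 0, 4.28 and 8.90 CPM. Pla2g5, a secreted phospholipase A2, was at 125 and 144 CPM against 0, 4.01 and 22.8 CPM. Clec3a, a C-type lectin, was at 35.6 and 27.4 CPM against 0, 0 and 10.3 CPM. L5 PT lay above every other sum for all of these. The mean level in L5 PT was 37.5 times that of the other sums for Gm42196, 19.96 times for Pla2g5 and 35.3 times for Clec3a. Their fitted fold changes, 5.74 (SE 0.25), 5.53 (SE 0.36) and 6.40 (SE 0.62), are no bounds, because 1, 2 and 5 of the other labels had 0 UMIs. With 3 UMIs taken as the limit of such a label, the differences were 5.02, 4.18 and 3.40 on the log2 scale. All were called by edgeR, with adjusted p = 1.0e-12, 1.3e-09 and 8.6e-07.

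Membrane proteins were also among the largest differences. Kcng1, a modifier subunit of potassium channels, was at 71.2 and 60.5 CPM against 0, 3.39 and 17.8 CPM, a mean level 11.95 times that of the others. Piezo2, a mechanically gated ion channel, was at 94.1 and 97.8 CPM against 0, 6.17 and 24.8 CPM, 11.3 times that of the others. Adgrg6, an adhesion G protein-coupled receptor, was at 106 and 83.9 CPM against at most 63.3 CPM, and Dcdc2c, a doublecortin domain protein, at 192 and 216 CPM against at most 108 CPM. All of these stood highest in L5 PT in both libraries, and Piezo2 had a log2 fold change of 4.52 (SE 0.40, edgeR, adjusted p = 8.8e-08) against the excitatory labels alone.

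On the other side, Car10, a carbonic anhydrase-related protein of the synapse, was at 27.8 and 27.4 CPM, against 77.7, 516 and 1918 CPM. The fold change was -3.90 on the log2 scale (SE 0.37, edgeR, adjusted p = 6.9e-08). Sdk1, an adhesion molecule that pairs synapses by layer, was at 22.9 and 27.1 CPM against 86.7, 212 and 1509 CPM. Ncald, a neuronal calcium sensor, was at 15.1 and 10.7 CPM against 57.0, 102 and 337 CPM. L5 PT lay under every other sum for these genes, and for Col19a1, Rmst, Etl4, Deptor and the glutamate receptor subunit Gria4. Deptor is an inhibitor of mTOR, and Rmst a long noncoding RNA. Their mean levels in L5 PT were 0.0718 and 0.0801 times those of the other sums.

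**Figure D2:**
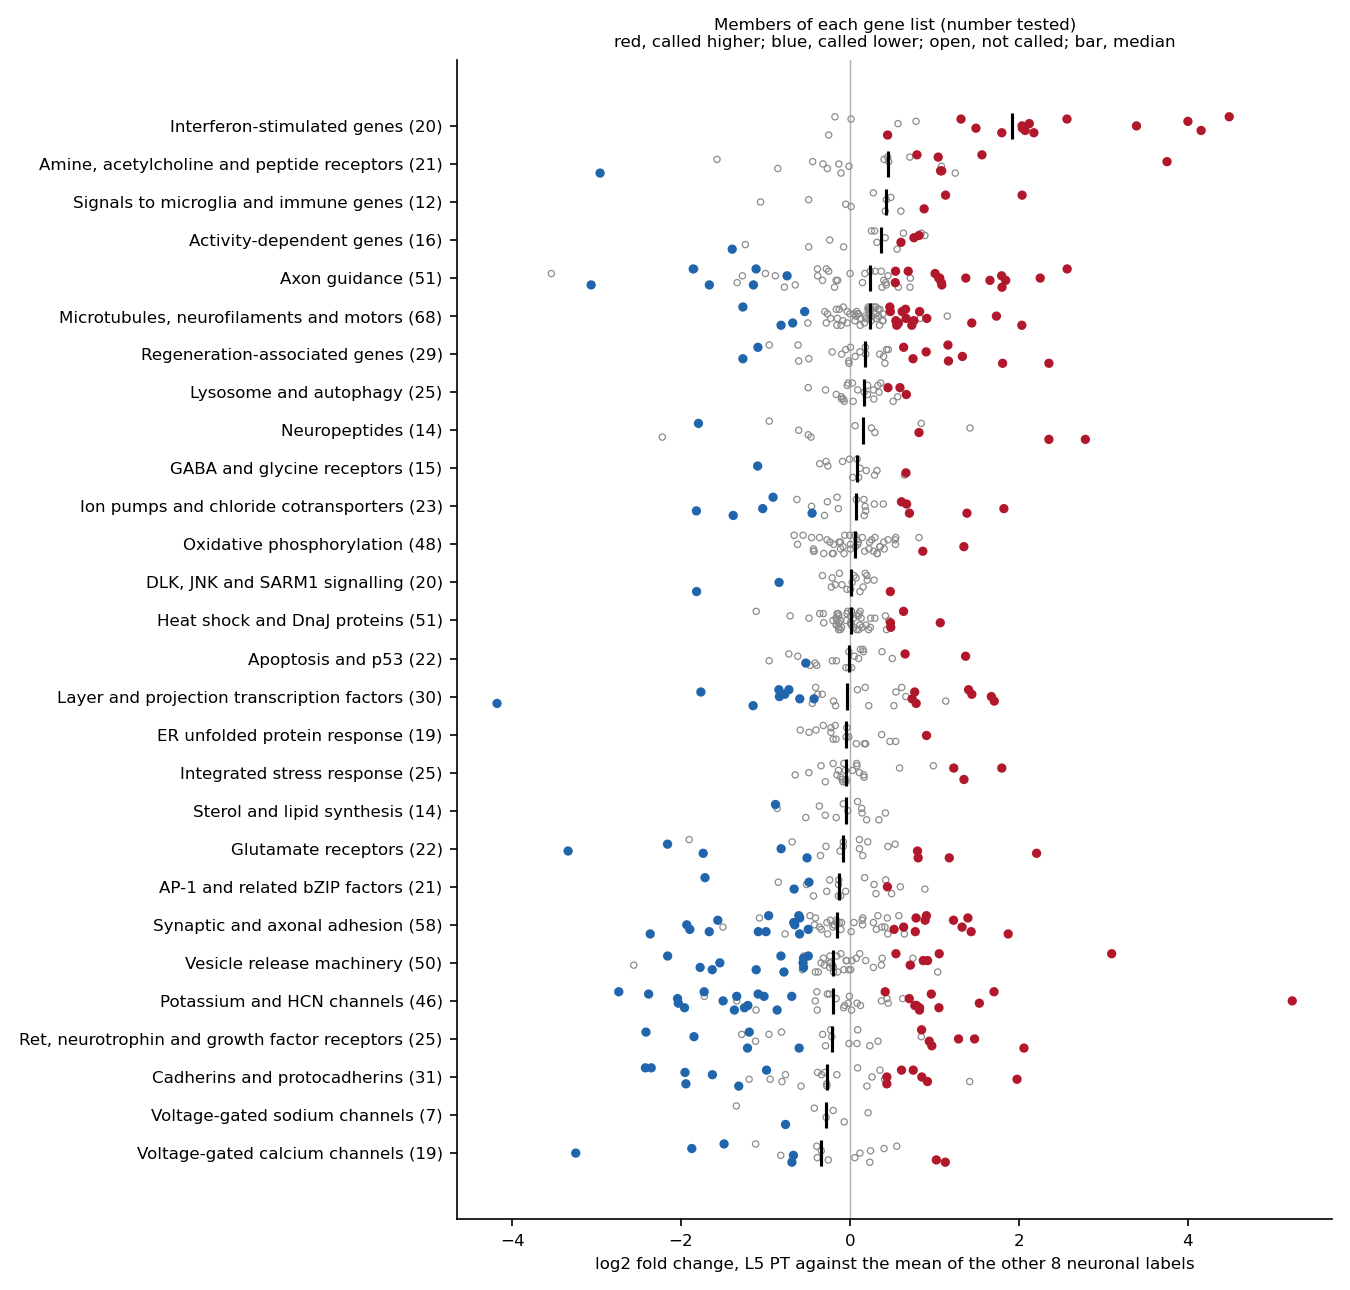
Each point is 1 tested gene of a list, placed by its log2 fold change between L5 PT and the mean of the other 8 neuronal labels. Red points were called higher, blue points lower and open points were not called, bars mark medians, and numbers in brackets count the tested genes. Identity and marker lists are not drawn. The interferon list was assembled after its values had been seen, and the filter on low counts favours its higher members. Its median was 1.92, or 1.43 with labels at 0 UMIs put at their limit, and nothing is read from its place among the lists. All bars are drawn without such limits, with which the median of the amine, acetylcholine and peptide receptors is -0.01 in place of 0.45.

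Genes of stress and injury were compared next, since the study asks which captured neurons degenerate. Ddit3 encodes CHOP, a transcription factor of the integrated stress response that can promote death. It was at 266 and 168 CPM in L5 PT, against 11.8, 74.9 and 316 CPM in the others. Only the L6 IT and L2/3 IT CTX-2 labels in the male library reached the lower L5 PT value. The difference on the log2 scale was 1.35 (SE 0.23, edgeR, adjusted p = 0.00017), or 1.04 against the excitatory labels (SE 0.25, adjusted p = 0.0041). Wars, a tRNA synthetase induced in the same response and by interferon, was at 157 and 122 CPM against 16.1, 58.6 and 137 CPM. Eif2ak2, the kinase PKR, which responds to double-stranded RNA, was at 29.6 and 25.2 CPM against 0, 10.2 and 25.3 CPM. These were the only called members of the integrated stress response list, 3 higher and 0 lower of 25 tested. Of all genes, 11.1% were called higher and 6.68% lower, so the count of higher members lay near that share. The median of the list was -0.05 beside 0.04 for all genes.

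The unfolded protein response, the companion program of the endoplasmic reticulum, held 1 called gene of 19, beside 11.1% higher and 6.68% lower of all genes. Ern1, the sensor IRE1, was at 82.1 and 102 CPM against 20.9, 46.9 and 84.6 CPM, with a log2 fold change of 0.90 (SE 0.19, edgeR, adjusted p = 0.0015). With the library as a block, 2 were called higher and 1 lower. Hspa5, the chaperone BiP, stood at 95.9 and 129 CPM, near the median of the other sums at 120 CPM. Among 22 genes of apoptosis and p53, Bbc3 and Mdm2 were called higher and Sesn1 lower (3 higher and 3 lower with the block, 0 and 3 when pooled). These counts are to be read beside the same shares of all genes. Bbc3 encodes PUMA, a killer protein of the BCL2 family. It was at 77.2 CPM (male) and 27.7 CPM (female), against 5.88, 18.6 and 84.6 CPM, and its log2 fold change of 1.37 (SE 0.36, edgeR, adjusted p = 0.0094) came with overlap with 6 of the 16 other sums. Mdm2, the ligase that restrains p53 and is its target, was at 383 and 313 CPM against 120, 204 and 454 CPM. It differed by a log2 fold change of 0.65 (SE 0.18, edgeR, adjusted p = 0.011). With all other neurons pooled, neither Bbc3 nor Mdm2 was called (edgeR, adjusted p = 0.21 and 0.16).

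Atf3 itself, which drives the Cre of these mice, was at 64.6 and 108 CPM against 13.3, 137 and 516 CPM in the other sums, and the highest of these were Pvalb. Its log2 fold change was -0.51 (SE 0.26, edgeR, adjusted p = 0.21) against all and 0.10 (SE 0.27, adjusted p = 0.88) against excitatory labels. With the library as a block, the first had an adjusted p of 0.016 (edgeR) and was called. Ecel1, an injury-induced endopeptidase, was at 325 and 456 CPM against 106, 287 and 483 CPM. Its log2 fold change of 0.41 (SE 0.25, edgeR, adjusted p = 0.30) was not called, and with the block it was (adjusted p = 0.0068). Of the 21 AP-1 and related bZIP factors tested, Crem was called higher, and Maf, Creb5 and Bach1 lower (3 and 4 with the block). Against excitatory labels alone, 2 were called higher and 1 lower. Bach1 was at 51.3 and 46.0 CPM in L5 PT, within the 27.3 to 84.6 CPM of the other excitatory sums. The Pvalb and Sst sums of Bach1 were the highest. The counts of this and the next list are to be read beside 11.1% higher and 6.68% lower of all genes. In the DLK and JNK injury pathway, Stmn2, a microtubule regulator, was higher at 466 and 449 CPM against 136, 348 and 694 CPM. The kinase JNK3, Mapk10, and the JNK phosphatase Dusp10 were called lower, with log2 fold changes of -0.84 (SE 0.15) and -1.82 (SE 0.26). The other 17 of the 20 tested were not called. Several of these calls were lost under alternatives. Crem lost its call in 8 of the alternatives, DESeq2 (adjusted p = 0.11) and pooling (edgeR, adjusted p = 0.077) among them. Creb5 lost its call in 6, and Bach1 with no filter on low counts (edgeR, adjusted p = 0.056). With only labels of at least 20 nuclei, Creb5, Maf and Stmn2 were not called (edgeR, adjusted p = 0.23, 1.0 and 0.15), and Stmn2 was not called with all other neurons pooled either (adjusted p = 0.27).

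Genes known from regenerating neurons were counted in the same way. Of 29 tested, 8 were called higher and 2 lower, beside 11.1% and 6.68% of all genes. The median log2 fold change was 0.18 beside 0.04 for all genes. Against the excitatory labels alone, 12 were called higher and 3 lower, and with all other neurons pooled 6 and 5. Sprr1a, a small proline-rich protein of injured axons (chromosome 3, 92483952–92485895, minus strand), was at 115 and 80.7 CPM, against 5.88, 30.7 and 139 CPM. The fold change was 1.81 on the log2 scale (SE 0.21, edgeR, adjusted p = 9.6e-07), and only the L6 IT sums reached it. Gap43, a growth cone protein, was at 672 and 703 CPM against 230, 393 and 466 CPM, and Cd44, the hyaluronan receptor, at 407 and 339 CPM against 64.6, 167 and 267 CPM. Adcyap1, which encodes the neuropeptide PACAP, was at 78.4 and 94.9 CPM against 2.35, 16.6 and 63.6 CPM. L5 PT lay above all other sums for the last 3 genes. Rest, a repressor of neuronal genes, was at 78.4 and 76.0 CPM against 0, 38.0 and 83.5 CPM, with a log2 fold change of 1.16 (SE 0.21, edgeR, adjusted p = 0.00036).

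The upstream sequence of Sprr1a is shown because AP-1 factors, which bind as partners of Atf3, are known to drive such genes. It is the 150 bases before the start site in RefSeq (GRCm38.p6, chr3:92485882-92486031, minus strand), written 5′ to 3′ with matches to the AP-1 motif TGANTCA in capitals, read on either strand since the motif is its own reverse complement.
Sprr1a: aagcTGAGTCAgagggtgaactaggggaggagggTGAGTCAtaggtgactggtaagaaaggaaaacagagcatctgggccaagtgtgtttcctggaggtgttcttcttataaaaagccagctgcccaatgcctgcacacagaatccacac
The matches begin at positions -146 and -116 from the start site. Of the other genes searched, Ddit3 held the motif once, at position -242, and Cd44 and both start sites of Adcyap1 held none of these letters. Of all 32851 promoter windows of 300 bases, 7.81% held this motif at least once, and a match is a description of letters, not of binding.

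Receptors for growth factors and their ligands had 6 called higher and 5 lower of 25 tested, beside 11.1% and 6.68% of all genes. With all other neurons pooled, 2 were higher and 9 lower, and with DESeq2 5 and 3. Met, the receptor of hepatocyte growth factor, was at 156 and 137 CPM against 15.1, 33.0 and 72.2 CPM, a log2 fold change of 2.06 (SE 0.19, edgeR, adjusted p = 5.9e-08). Fgfr1, a fibroblast growth factor receptor, was at 148 and 130 CPM against 27.6, 60.5 and 96.3 CPM. Ret, the receptor for the GDNF family of ligands, was at 121 and 194 CPM against 40.1, 72.3 and 233 CPM, and both Pvalb sums and the female L6 CT sum reached its lower value. Kitl, a ligand, was at 93.5 and 83.9 CPM against 0, 35.4 and 130 CPM. Ntrk2, the BDNF receptor TrkB, was lower, at 211 and 207 CPM against 187, 480 and 819 CPM, with a log2 fold change of -1.19 (SE 0.16, edgeR, adjusted p = 1.2e-05). Met and Fgfr1 were highest in L5 PT of the 9 labels in both libraries. With all other neurons pooled, Kitl and Ret were not called (edgeR, adjusted p = 0.26 and 0.053).

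**Figure D3:**
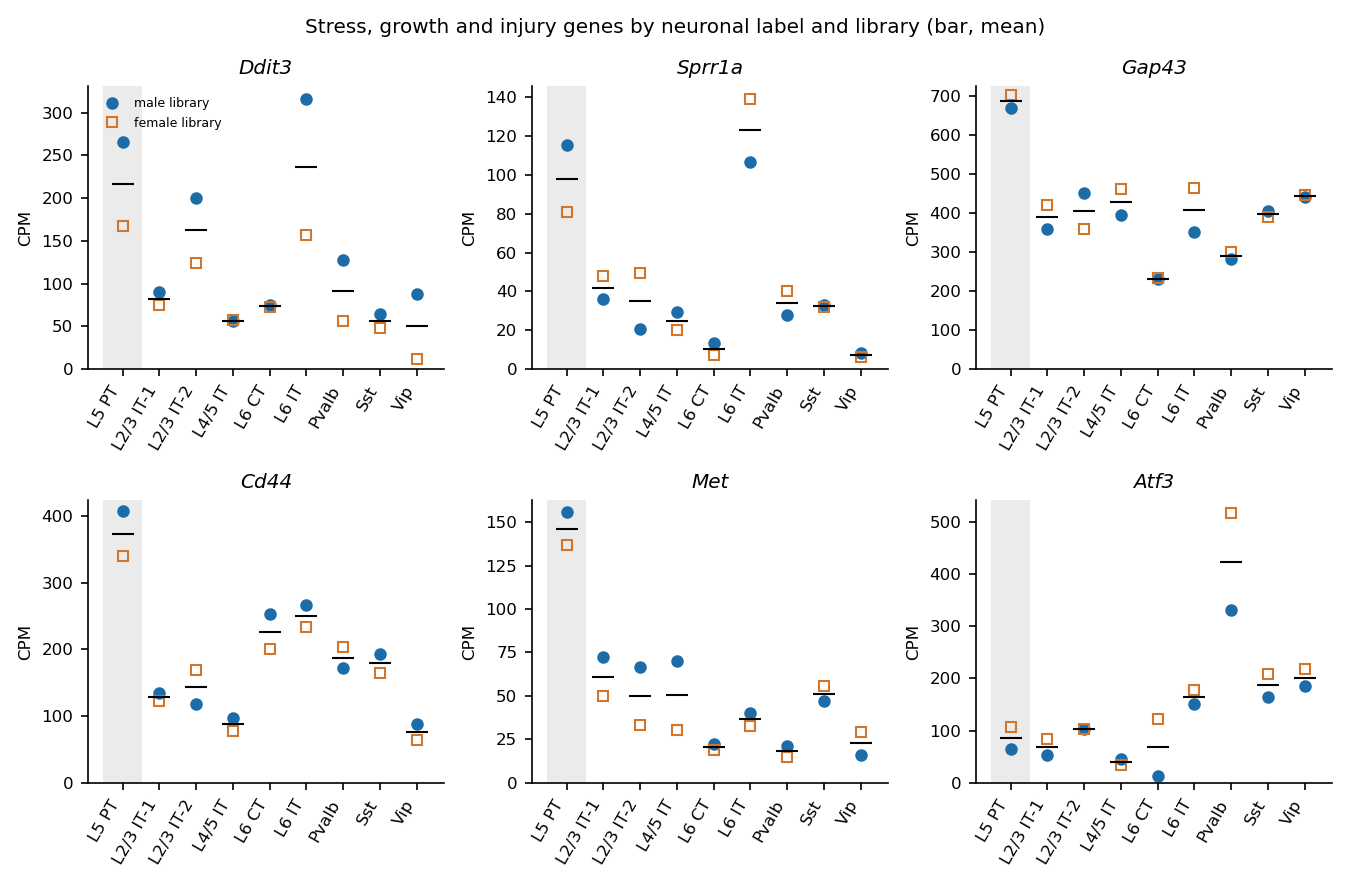
Levels (CPM, linear axis) of 6 injury-related genes in the 9 neuronal labels, with L5 PT shaded and the mean of the male (filled circle) and female (open square) library as a bar. Gap43, Cd44 and Met were higher in L5 PT than in any other sum, Sprr1a in both and Ddit3 in the male L6 IT sum reached the lower L5 PT value, and Atf3 was highest in Pvalb.

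Of 46 potassium and HCN channel genes tested, which set excitability, 11 were called higher and 15 lower, beside 11.1% and 6.68% of all genes. Their median was -0.20. Against excitatory labels the counts were 6 and 18, and with all other neurons pooled 4 and 19. Besides Kcng1, whose product is silent alone and alters the gating of partner subunits, the clearest calls were lower. Kcnc1 and Kcnc2 encode the Kv3 channels of fast-spiking cells. Kcnc1 was at 14.5 and 17.0 CPM against 44.5, 83.9 and 154 CPM, and Kcnc2 at 168 and 132 CPM against 347, 498 and 1353 CPM. Kcnk2, the leak channel TREK-1, was at 7.24 and 9.46 CPM against 28.4, 55.3 and 159 CPM, with a log2 fold change of -2.74 (SE 0.26, edgeR, adjusted p = 5.9e-08). L5 PT was below every other sum, excitatory labels included, for these 3 genes. Kcnj3, the GIRK1 channel that opens behind inhibitory receptors, was at 32.6 and 45.4 CPM against 32.9, 114 and 311 CPM.

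Calcium channel genes had 2 called higher and 5 lower of 19 tested (3 and 8 with the block, 1 and 8 when pooled). Their median was -0.34, and the shares called over all genes were 11.1% higher and 6.68% lower. Cacna1e, the R-type channel, was at 431 and 687 CPM against 78.8, 291 and 558 CPM, and Cacna2d3, an auxiliary subunit, at 866 and 888 CPM against 39.3, 667 and 1500 CPM. Cacna1a, the P/Q-type channel of nerve endings, was at 426 and 418 CPM against 385, 683 and 1047 CPM. Cacng2, or stargazin, which brings AMPA receptors to the synapse, was at 59.7 and 58.3 CPM against 66.8, 174 and 264 CPM, under every other sum. Of 7 sodium channel genes, Nalcn alone was called, with a log2 fold change of -0.77 (SE 0.17, edgeR, adjusted p = 0.0020), and 3 were called lower with the block. Scn2a and Scn8a, the main axonal sodium channels of pyramidal cells, were not called (log2 fold changes -0.28 and -0.20, SE 0.15 and 0.14).

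Among 22 glutamate receptor genes, 4 were called higher and 5 lower (5 and 8 with the block, 4 and 8 when pooled). The shares called over all genes were 11.1% higher and 6.68% lower. Grik3, a kainate receptor subunit, was at 343 and 468 CPM against 8.03, 96.3 and 469 CPM, and only the L6 CT sums reached it. The difference on the log2 scale was 2.21 (SE 0.18, edgeR, adjusted p = 9.3e-09). Grm4, a presynaptic metabotropic receptor, was at 59.1 and 98.4 CPM against 8.03, 31.9 and 111 CPM. Gria4, an AMPA receptor subunit, was at 20.5 and 18.9 CPM against 62.3, 179 and 556 CPM, a log2 fold change of -3.34 (SE 0.32, edgeR, adjusted p = 7.1e-08), and the value against excitatory labels alone was -3.39 (SE 0.32). Grik1 was lower against all labels and not called against excitatory ones (edgeR, adjusted p = 0.085, or 0.035 with the block). Of 15 GABA and glycine receptor genes, 1 was called higher and 1 lower. The higher one, Gabrb2, was at 311 and 344 CPM against 70.5, 237 and 402 CPM. Gabrb2, like Cacna2d3, was not called with all other neurons pooled (edgeR, adjusted p = 0.092 and 0.083).

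**Figure D4:**
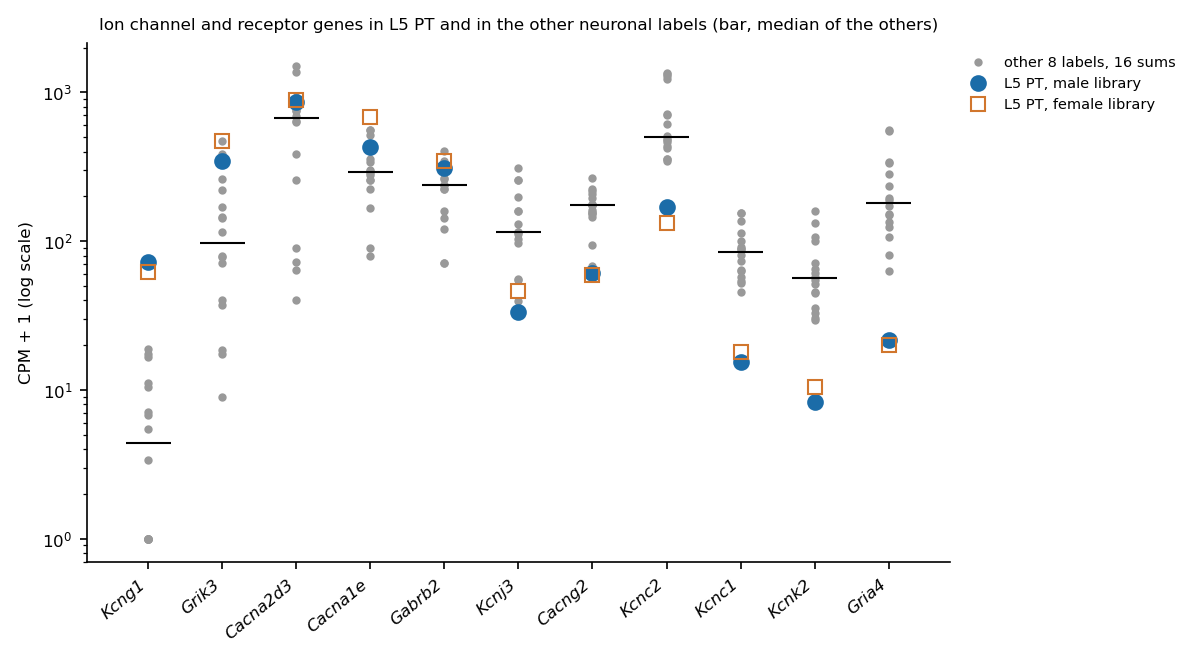
Levels (CPM + 1, log axis) of 11 channel and receptor genes in L5 PT of the male (filled circle) and female (open square) library and in the 16 sums of the other labels (grey points, bar at their median). Kcng1 lay above all grey points, and Kcnc1, Kcnc2, Kcnk2, Cacng2 and Gria4 lay below all of them.

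Receptors for amines, acetylcholine and peptides had 6 genes called higher and 1 lower of 21 tested, out of 64 listed (4 and 3 when pooled). These counts, and those of neuropeptides below, are to be read beside 11.1% higher and 6.68% lower of all genes. Of the 21 receptor genes, 6 had a label at 0 UMIs. The median log2 fold change of the receptors was 0.45, and -0.01 with such labels put at their limit. Galr1, an inhibitory galanin receptor, was at 320 and 299 CPM against 0, 26.4 and 151 CPM, and no other sum reached it. It differed by a log2 fold change of 3.75 (SE 0.24, edgeR, adjusted p = 3.1e-10), or 3.08 (SE 0.25) against excitatory labels. It was found in 56.2% and 63.1% of L5 PT nuclei (95% intervals 50.9–61.5 and 57.3–68.7), against 0.533% and 0.898% of microglia. Thinned to 2300 UMIs, the L5 PT shares were 44.0% and 38.8%. Htr2a, a serotonin receptor known from layer 5, was at 76.6 and 79.5 CPM against 0, 33.3 and 129 CPM, and Htr1f, another, at 90.5 and 84.2 CPM against 13.1, 34.9 and 235 CPM. Adcyap1r1, the receptor of PACAP, was lower at 4.83 and 3.15 CPM against 0, 26.0 and 78.5 CPM, while the peptide, Adcyap1, was higher as given above. Of 14 neuropeptide genes, Adcyap1, Vgf and Pdyn were called higher and Penk, which encodes the enkephalin precursor, lower (5 and 1 with the block, 2 and 2 when pooled). Vgf, a secreted precursor induced by activity and neurotrophins, was at 107 and 94.6 CPM against 39.0, 55.8 and 84.6 CPM, above all other sums. Pdyn, the dynorphin precursor, was not called with all other neurons pooled (edgeR, adjusted p = 0.60).

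Axon guidance had 15 genes called higher and 6 lower of 51 tested, beside 11.1% and 6.68% of all genes. The median of the list was 0.24. Against excitatory labels alone, 16 were higher and 10 lower, with a median of 0.02, and with all other neurons pooled 14 and 11. Nrp1, the semaphorin 3A receptor subunit neuropilin 1, was at 252 and 278 CPM against 14.7, 85.7 and 426 CPM, and only L6 CT reached it. Ephb1, an ephrin receptor, was at 270 and 304 CPM against 8.03, 66.2 and 1018 CPM, again below L6 CT. Rtn4r, the Nogo receptor, which restrains axon growth, was at 148 and 132 CPM against 7.83, 51.6 and 116 CPM, above all other sums. Its log2 fold change was 1.66 (SE 0.16, edgeR, adjusted p = 6.0e-08). Among ligands, Slit3 was at 618 and 832 CPM against 23.5, 215 and 776 CPM, and Sema3e at 159 and 152 CPM against 25.4, 52.0 and 217 CPM.

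The balance of adhesion genes depended on the comparison, and their counts are to be read beside 11.1% higher and 6.68% lower of all genes. Of 31 cadherins and protocadherins, 7 were called higher and 7 lower, 4 and 10 against excitatory labels, and 2 and 12 with all other neurons pooled. Of 58 genes of synaptic and axonal adhesion, 11 were higher and 14 lower (17 and 19 with the block, 6 and 20 when pooled). Cdh13, a cadherin without a cytoplasmic tail, was at 431 and 605 CPM against 21.5, 103 and 1196 CPM, and only Sst interneurons reached it. Pcdh9 was at 1232 and 1396 CPM, under all other sums, whose lowest was 1429 and whose median was 2677 CPM. Dscaml1, an adhesion molecule of the immunoglobulin family, was at 904 and 943 CPM against 46.8, 279 and 808 CPM, and Lrfn2, a postsynaptic organiser, at 1075 and 1208 CPM against 170, 440 and 1011 CPM. Lsamp, at 504 and 578 CPM against 648, 1953 and 5458 CPM, and Cntn1, a contactin, at 68.8 and 78.8 CPM against 89.0, 245 and 472 CPM, were under every other sum. The log2 fold changes were 1.87 (SE 0.16) for Dscaml1 and -1.93 (SE 0.17) for Lsamp (edgeR, adjusted p = 2.9e-08 and 3.4e-08).

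Of 68 tested genes of microtubules, neurofilaments and motors, 15 were called higher and 4 lower, beside 11.1% and 6.68% of all genes, with a median of 0.23. Against excitatory labels the counts were 18 and 1, and with all other neurons pooled 7 and 4. Nefm, the medium neurofilament subunit, was at 404 and 486 CPM against 8.03, 128 and 662 CPM, and only L6 CT reached it. The fold change was 2.04 on the log2 scale (SE 0.14, edgeR, adjusted p = 9.0e-10). Kif17, a kinesin that carries receptors into dendrites, was at 293 and 323 CPM against 41.1, 88.3 and 240 CPM, and Kif26b, an atypical kinesin, at 281 and 308 CPM against 16.1, 114 and 258 CPM. Both kinesins were highest in L5 PT. Map1b, a microtubule protein of growing axons, was at 1737 and 1826 CPM against 698, 947 and 2061 CPM, and only Pvalb sums were as high. The summed level of the whole list was 28256 and 30617 CPM in L5 PT against 18471, 21795 and 29156 CPM elsewhere.

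In the vesicle release machinery, 6 genes were called higher and 11 lower of 50 tested (3 and 13 when pooled). The shares called over all genes were 11.1% higher and 6.68% lower. Doc2b, a calcium sensor of spontaneous release, was at 89.3 and 86.7 CPM against 0, 16.5 and 67.1 CPM, and Snap25, a SNARE protein of every neuron, at 1368 and 1414 CPM against 364, 816 and 1071 CPM, both above all other sums. Rab3c, a vesicle GTPase, was higher too, at 250 and 272 CPM against 35.4, 130 and 358 CPM. Bsn, the active zone scaffold bassoon, was at 106 and 115 CPM against 96.2, 203 and 295 CPM, and Syt6, a synaptotagmin, at 80.3 and 114 CPM against 75.7, 285 and 935 CPM. Of 23 pumps and cotransporters, 5 were called in each direction (3 higher and 6 lower when pooled). Slc24a2, a sodium-calcium-potassium exchanger, was at 134 and 192 CPM against 410, 580 and 850 CPM, and Slc24a3 at 215 and 207 CPM against 217, 509 and 1573 CPM, both under all other sums. Atp2b1, a plasma membrane calcium pump, was at 664 and 684 CPM against 253, 443 and 784 CPM.

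The remaining lists are given by their counts, to be read beside the 11.1% and 6.68% of all genes. Of 48 oxidative phosphorylation genes, 2 were called higher and 0 lower. Of 51 heat shock and DnaJ genes, 4 were higher and 0 lower (7 and 2 with the block, 2 and 0 with all other neurons pooled), Dnajb5 with the smallest adjusted p, at 80.3 and 86.7 CPM against 11.8, 42.7 and 61.7 CPM. Of 14 sterol and lipid synthesis genes, Acsl3 alone was called and was lower (2 with the block), a call lost with no filter on low counts (edgeR, adjusted p = 0.14). Of 25 lysosome and autophagy genes, Ctsb, Atg7 and Wipi2 were called higher, by 0.59, 0.67 and 0.45 on the log2 scale, and 1 of them stayed called with DESeq2 and 1 with all other neurons pooled. Activity-dependent genes had Per1, Egr1 and Vgf higher and Nptx2 lower of 16 (3 and 2 when pooled), and 2 were called higher with DESeq2. The layer and projection transcription factors held more, with 7 higher and 9 lower of 30 tested. Nfib, which guides deep layer axons, was at 466 and 426 CPM against 11.8, 178 and 607 CPM, and Tcf4 at 186 and 193 CPM was under all other sums, whose lowest was 338 CPM.

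Among 12 tested genes that signal to immune cells, 3 were called higher, Cd200 and Cx3cl1 among them, and 0 lower (4 and 2 with the block). The shares called over all genes were 11.1% higher and 6.68% lower. Cd200, a ligand that quiets microglia, was at 79.0 and 68.7 CPM against 8.86, 33.2 and 75.9 CPM, and Cx3cl1, or fractalkine, the ligand of a microglial receptor, at 76.0 and 71.0 CPM against 20.9, 39.9 and 84.8 CPM.

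Interferons are antiviral cytokines that act through STAT transcription factors on a shared set of target genes. Ifit1 and Rsad2, both antiviral effectors of this set, were among the 12 largest higher fold changes. Ifit1 (chromosome 19, 34640871–34650009, plus strand) was at 115 and 72.5 CPM in L5 PT, against 0, 9.29 and 65.4 CPM. Rsad2, or viperin (chromosome 12, 26442746–26456452, minus strand), was at 39.2 and 35.9 CPM against 0, 0.875 and 49.0 CPM, and only the L6 IT sum of the male library reached it. The mean levels in L5 PT were 4.86 and 6.33 times those of the other sums, and 2 other labels had 0 UMIs of each. A list of 47 interferon-stimulated genes was then assembled after these values had been seen, so its counts describe and do not test. The filter on low counts removed 27, and 9 of the 20 that passed had a label at 0 UMIs. A gene low elsewhere can pass only through L5 PT, so the filter itself favours higher members. Of the 20, 14 were called higher and 0 lower, a count from which nothing is read beside the 11.1% of all genes. Their median log2 fold change was 1.92, and 1.43 with labels at 0 UMIs put at their limit. The summed level of all listed genes was 1109 and 1050.4 CPM in L5 PT, against 299.7, 479 and 1135 CPM in the other sums, so another sum was as high. In microglia the same genes summed to 5015 and 3647 CPM, above L5 PT. Ifih1 was found in 13.1% and 18.4% of microglia against 11.6% and 14.1% of L5 PT nuclei. For Ifit1 the shares were 2.60% and 2.40% of microglia against 13.1% and 11.4% of L5 PT nuclei. The part of microglial RNA in the L5 PT levels was not tested. The 14 include Ifih1, a sensor of double-stranded RNA, at 45.3 and 41.3 CPM against 0, 2.94 and 37.7 CPM, and Samd9l at 21.7 and 29.6 CPM against 0, 1.84 and 13.4 CPM. Stat2 was at 57.9 and 66.5 CPM against 0, 24.2 and 46.8 CPM, and Rnf213, a large ubiquitin ligase, at 116 and 157 CPM against 4.43, 21.4 and 138 CPM.

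The sequences upstream of 3 of these genes are shown because interferon targets share a response element, here read as GAAA, any 2 bases and GAAA again, on either strand. They come from RefSeq (GRCm38.p6), end at the base before the start site, and are written 5′ to 3′ with matches in capitals, which read TTTC, 2 bases and TTTC because they lie on the other strand. The windows are chr19:34640739-34640888 (plus strand) for Ifit1, chr12:26456453-26456602 (minus strand) for Rsad2 and chr10:128270248-128270497 (plus strand) for Stat2.
Ifit1: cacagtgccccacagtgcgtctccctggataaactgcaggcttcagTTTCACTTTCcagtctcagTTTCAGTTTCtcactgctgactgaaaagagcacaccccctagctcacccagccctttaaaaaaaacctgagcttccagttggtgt
Rsad2: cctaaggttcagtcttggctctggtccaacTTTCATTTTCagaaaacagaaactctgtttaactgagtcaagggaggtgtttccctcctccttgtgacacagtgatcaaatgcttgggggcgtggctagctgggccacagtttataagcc
Stat2: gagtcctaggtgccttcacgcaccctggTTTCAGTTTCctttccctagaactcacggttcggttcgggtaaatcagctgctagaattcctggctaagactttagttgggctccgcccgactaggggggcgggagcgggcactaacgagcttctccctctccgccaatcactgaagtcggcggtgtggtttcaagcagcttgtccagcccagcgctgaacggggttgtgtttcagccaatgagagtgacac
The matches begin at positions -104 and -85 from the start site of Ifit1, -120 from that of Rsad2 and -222 from that of Stat2. Of the 14 called genes, 12 had an entry among the promoter windows, and 8 of these held the motif at least once. Of all 32851 windows, 3.44% held it, a share counted per window and not per gene. The genes were listed as known interferon targets after values were seen, so nothing is read from this count. The windows run past the start site, and in Ifih1, Ddx58 and Eif2ak2 the only match lay there. It began at positions 33, 3 and 19, so not all matches counted are upstream. Samd9l, Cd274, Rnf213 and Adar had none of these letters in their windows.

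These UMIs were not spread evenly over L5 PT nuclei. Ifit1 was found in 46 of 352 male and 33 of 290 female nuclei (13.1% and 11.4%, 95% intervals 9.73–17.0 and 7.96–15.6), and the 10 nuclei with the most held 57.9% and 72.2% of all Ifit1 UMIs. For Tmem163 the 10 highest nuclei held 17.0% and 16.1%. UMIs of at least 2 of the 4 genes Ifit1, Rsad2, Ifih1 and Samd9l were found in 34 male (9.66%, 6.78–13.2) and 32 female (11.0%, 7.67–15.2) L5 PT nuclei. Thinned to 2300 UMIs, the shares were 8.21% and 6.05%. In the other labels the share ran from 0% to 6.67%, the highest being 10 of 150 female Pvalb nuclei, and from 0% to 3.57% after thinning. In microglia, which make interferon targets themselves, it was 3.08% and 5.00%, or 6.70% and 2.96% after thinning. These 4 genes were chosen after their values were seen.

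The L5 PT nuclei with at least 2 of the 4 genes were set beside the other L5 PT nuclei of their library, as a description. Of the interferon targets that had not been used to pick them, some were higher in both libraries and Wars was not. Stat2 was at 174 against 42.6 CPM among male and 215 against 33.7 CPM among female nuclei, and Rnf213 at 628 against 46.1 CPM and 811 against 25.2 CPM. Cd274, the checkpoint ligand PD-L1, was at 159 against 16.8 CPM and 95.8 against 6.81 CPM. Wars was lower, at 149 against 161 CPM and 88.2 against 116 CPM. Among injury genes, Atf3 was at 69.7 against 64.9 CPM and 146 against 90.6 CPM, and Sprr1a at 169 against 110 CPM and 78.6 against 73.2 CPM. Ddit3 was at 259 against 272 CPM and 167 against 152 CPM, and Ecel1 at 394 against 321 CPM and 403 against 421 CPM. Microglia markers summed to 603 against 554 CPM and 836 against 862 CPM. The picked nuclei were also deeper, with medians of 5504.5 against 3741.5 and 15181.5 against 10271 UMIs, and the part of depth in these values was not tested. Ifit1 and Oasl2, a pair chosen after values were seen, had 190 and 14 UMIs in male and 230 and 17 in female L5 PT nuclei, and 49 and 437 in male and 71 and 714 in female microglia.

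**Figure D5:**
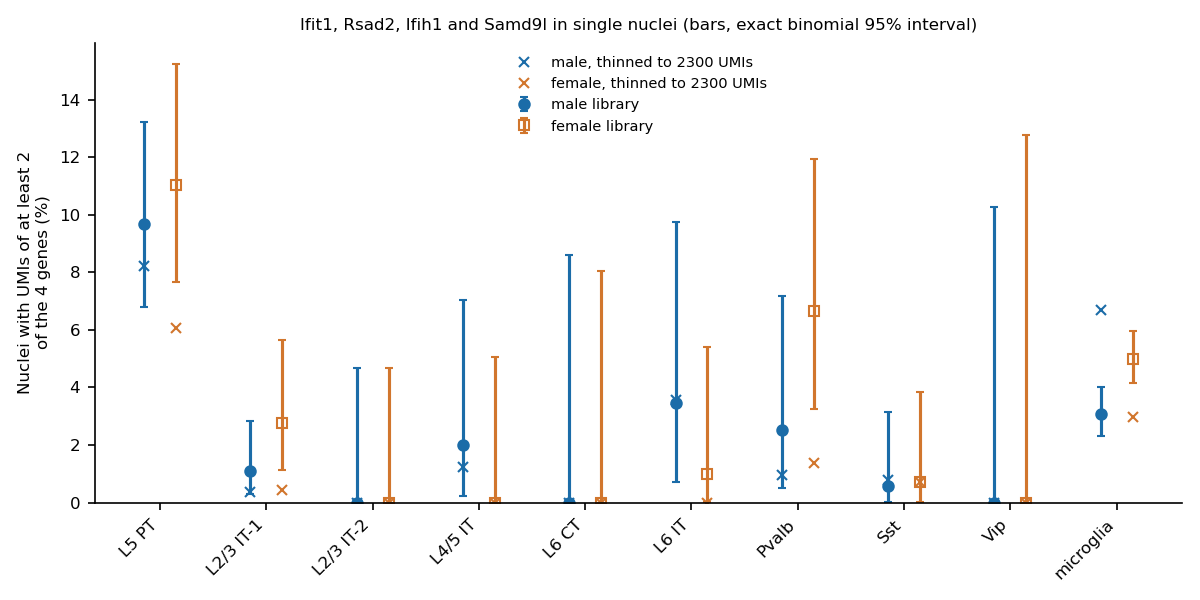
Percent of nuclei of each label with UMIs of at least 2 of the genes Ifit1, Rsad2, Ifih1 and Samd9l in the male (filled circle) and female (open square) library, with exact binomial 95% intervals that cover counting error only. Crosses give the percent after each nucleus was thinned to 2300 UMIs. L5 PT stood at 9.66% and 11.0%, and no other neuronal label was above 6.67%.

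L5 PT nuclei varied in other genes too. Over 7625 genes with a mean of at least 0.02 UMIs per thinned nucleus in both libraries, the variance to mean ratio had a median of 1.05 in 268 male and 1.04 in 281 female nuclei. Hmga2, an architectural chromatin protein best known from embryonic cells, ranked 9th and 16th by this ratio (5.32 and 4.46), and Ifit1 21st and 17th (3.67 and 4.45). Hmga2 UMIs were found in 62 male and 55 female L5 PT nuclei, and the 10 highest held 60.7% and 64.8% of them, with up to 91 and 95 in 1 nucleus. As a sum it was at 232 and 211 CPM, against 0, 28.9 and 262 CPM, and the log2 fold change was 3.57 (SE 0.31, edgeR, adjusted p = 3.1e-08). Hmga2 was named after its values were seen.

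The 45 male and 31 female L5 PT nuclei outside the leading cluster differed in level from those in it, though clusters and these levels come from the same counts. Of these nuclei, 49 lay in a cluster of which L5 PT made up 36.0%, and the others in clusters led by other labels. The part of mixed or doubtful labels in these levels was not tested. The nuclei outside held less Tcerg1l, at 97.3 and 35.3 CPM against 364 and 398 CPM in the cluster. They held more Atf3, at 253 and 205 CPM against 46.0 and 89.5 CPM, more Ddit3, at 545 and 251 CPM against 241 and 145 CPM, and more Gap43, at 1135 and 872 CPM against 634 and 625 CPM. Cd44 was alike in both, at 415 and 300.0 CPM against 413 and 312 CPM. The Atf3 values outside the cluster rest on 39 and 58 UMIs.

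Markers of other cells were present in the L5 PT sums, and those of microglia had the highest summed level. The 11 microglia markers summed to 552 and 936 CPM in L5 PT, within the range of 314 to 1890 CPM of the other labels, against 6099 and 6027 CPM in microglia. None of the 6 that were tested was called. The 7 astrocyte markers summed to 76.6 and 75.7 CPM against 44.0 to 434 CPM, and Slc1a2, a glutamate transporter that neurons also make, was called lower. The 8 oligodendrocyte markers summed to 116 and 106 CPM against 46.9 to 165 CPM, and Mbp, at 91.1 and 81.7 CPM, was called higher with a log2 fold change of 0.98 (SE 0.19, edgeR, adjusted p = 0.00068). Endothelial and leptomeningeal markers summed to 7.24 and 11.4 CPM, with Cldn5 at 0. Nuclei with at least 2 UMIs of microglia markers were 61.6% of male and 96.9% of female L5 PT nuclei, and with these nuclei left out, 9 female L5 PT nuclei were kept and 134 genes were called higher and 30 lower, so the part of this RNA in the results was not tested further.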

How the data were processed

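Single-nucleus 10X 3′ RNA-seq was analysed in 2 libraries, each from 4 pooled animals. The authors deposited UMI counts per gene and nucleus, made with Cell Ranger against GRCm38 pre-mRNA, and a table of clusters and of subclass labels mapped in Seurat, in which the authors also give the percent of mitochondrial UMIs per nucleus. The submitters' processing notes name Cell Ranger 3.1.0, Seurat and DESeq2, while the file headers name a later Cell Ranger. Raw counts were summed per label and library with Python 3.11.15 and pandas 2.3.3, giving 18 sums of 9 labels with at least 50 nuclei. These were fitted together with edgeR 4.0.16 in R 4.3.3 (TMM scaling, filterByExpr, quasi-likelihood test, Benjamini-Hochberg adjustment, threshold 0.05), which kept 8664 of 31053 genes, and the procedure was tested on simulated data. DESeq2 1.42.0 was an alternative. The 2 libraries pair the sums, since all sums of 1 library stem from the same pooled animals. Deviations of same-library sums from their label means correlated at 0.0309 to 0.476 over 36 pairs of labels. The p-values measure the spread between sums of 2 pools. Labels and the subset were taken as deposited, with doublets treated only as the authors did, and depth is given as UMIs per nucleus, where intervals cover counting error only.

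Members, gene lists and tests were chosen with earlier results of these data known. Named genes were the L5 PT identity list, the 12 genes with the largest called fold change in each direction, and the 6 against excitatory labels, with at least 20 CPM and the same direction in each library. Added to these were up to 5 called members of each list by adjusted p, the 2 most abundant members of lists with fewer than 2 calls, Atf3, Ecel1, Ddit3 and the 2 most abundant markers of each other cell type. Not all of these are printed, and some genes are not reported here. Slc17a7, Stat2, Ifih1, Samd9l, Rnf213, Cd274, Adar and Hmga2 were chosen after their values were seen. Coordinates are those of GENCODE on GRCm38. Overlapping genes on the same strand can share reads, which among the named genes applies to Kif17 with Sh2d5 and Acsl3 with Utp14b.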

Additional observations from a re-analysis of the deposited data

Results flagged for a closer look

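The reporter transcript lay outside the gene comparisons. It gave 8 UMIs in 7 of the 352 male and 52 UMIs in 46 of the 290 female L5 PT nuclei, above the limit of 3 that a count of 0 allows, or 4.90 and 15.0 CPM. In microglia it gave 12 and 53 UMIs, or 4.81 and 6.59 CPM.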

How the results depend on the processing

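Of 116 called fold changes of the named genes, 58 were called under every alternative that gave them a value, and Cacna1a alone changed direction (log2 fold change 0.0681 without nuclei that held at least 2 microglia UMIs). With the library as a replicate block, that is with sums paired by library, 870 genes were called lower against all labels and 884 against excitatory labels, and among the named genes only Atf3, Ecel1 and Grik1 changed their call. Without nuclei with microglia UMIs, 4191 genes could be tested, 134 were called higher and 30 lower against all and 84 and 35 against excitatory labels, and 51 of 91 named fold changes lost their call. With nuclei thinned to 2300 UMIs, 566 and 314 of 4724 genes were called, and 466 and 301 against excitatory labels. Thinning also moved the share of L5 PT nuclei with a UMI to 42.3% for Tcerg1l in the female library, 69.4% and 63.0% for Tmem163, 44.0% and 38.8% for Galr1, 22.4% and 17.1% for Sprr1a, and 7.12% for Ifit1 in the female library. With no filter on low counts, 1488 genes were called higher, and with other neurons pooled 627. Some values that had not been called changed sign. Atf3 moved from -0.51 to 0.0438 without nuclei with microglia UMIs, and to -0.14 against excitatory labels with L5 PT nuclei of 1 cluster only. Hspa5 moved to 0.0489 with no filter, 0.00163 with labels of at least 20 nuclei, 0.0235 with merged L2/3 IT labels, 0.29 without nuclei with microglia UMIs and 0.0563 without the L6 IT label, and lay at 0.0676 to 0.0970 in single libraries. Slc17a7 moved to -0.00378 with the replicate block, -0.00827 with DESeq2, -0.0521 with labels of at least 20 nuclei, -0.0664 with 1 cluster and -0.61 when pooled. The cause of these moves was not tested, beyond the smaller number of genes and nuclei in some alternatives. Leaving out a library gives no test, since no residual degrees of freedom remain. The alternatives with L5 PT in both label columns and without the L6 IT label were chosen after seeing the data.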
